A study of Mus musculus with 36 samples.

Results

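The genes described here are 38 skeletal muscle contractile genes, taken as a list of symbols: myosin, actin, troponin and tropomyosin genes, genes of the Z-disc and M-band, and genes of calcium handling and energy supply in muscle fibres. Of the 38, 37 had a probe on the array, out of 19057 named genes measured, and Myh2, a fast myosin heavy chain gene, had none. They fall into 7 slow-fibre isoforms, 12 measured fast-fibre isoforms and 18 genes that both fibre types use. The series holds 36 Illumina MouseWG-6 v2 arrays of male C57BL/6J mice on a chow diet, 12 arrays each of brown fat, inguinal white fat and liver. Each tissue was taken from old mice (24 months) and young mice (5 months) at 6 harvest times (0, 4, 8, 12, 16 and 20 h) after days in dim red light, with 1 array for each combination, so each tissue has 6 old and 6 young arrays. Each array is labelled with 3 mice, and whether their RNA was pooled is not said. The p-values below therefore measure the spread between arrays of different harvest times, not between single mice. No array carries a genetic change or a drug treatment, and all mice shared strain, sex, diet and light regime.

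Skeletal muscle fibres contract by sliding myosin thick filaments along actin thin filaments, and troponin and tropomyosin on the thin filament set this motion going when calcium leaves the sarcoplasmic reticulum. Slow and fast fibres build the same machine from different genes, for example the troponin C gene Tnnc1 in slow and Tnnc2 in fast fibres, and several slow isoforms are also the isoforms of the heart ventricle. Adipocytes and hepatocytes build no sarcomeres, and brown adipocytes share precursors with skeletal muscle in mouse development. A bulk array reads the whole dissected piece, so fewer cells of a type and less RNA per cell cannot be told apart.

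Promoter windows are shown for 6 members whose values carry the results below: the slow and the fast regulatory myosin light chain (Myl2 and Mylpf), the slow and the fast troponin C (Tnnc1 and Tnnc2), the fast myosin heavy chain Myh4, and skeletal actin Acta1. Each window runs from 250 bases before to 50 bases after the RefSeq start site (build GRCm38.p6), 5′ to 3′ on the gene's strand. They lie at chr5:122092474-122092773 on the plus strand for Myl2 (the first of its 2 windows), chr7:127211358-127211657 on the plus strand for Mylpf, chr14:31208062-31208361 on the plus strand for Tnnc1, chr2:164779685-164779984 on the minus strand for Tnnc2, chr11:67237562-67237861 on the plus strand for Myh4 and chr8:123894726-123895025 on the minus strand for Acta1. Capitals mark matches to any of 4 motifs searched on both strands: the E-box CAGCTG, the MEF2 consensus, the CArG box and TATAAA.
Myl2: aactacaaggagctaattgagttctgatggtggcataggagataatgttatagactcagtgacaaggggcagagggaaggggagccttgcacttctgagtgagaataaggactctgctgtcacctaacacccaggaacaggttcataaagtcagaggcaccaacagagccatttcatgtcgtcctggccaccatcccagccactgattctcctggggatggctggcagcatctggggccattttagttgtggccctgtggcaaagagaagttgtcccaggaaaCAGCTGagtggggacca
Mylpf: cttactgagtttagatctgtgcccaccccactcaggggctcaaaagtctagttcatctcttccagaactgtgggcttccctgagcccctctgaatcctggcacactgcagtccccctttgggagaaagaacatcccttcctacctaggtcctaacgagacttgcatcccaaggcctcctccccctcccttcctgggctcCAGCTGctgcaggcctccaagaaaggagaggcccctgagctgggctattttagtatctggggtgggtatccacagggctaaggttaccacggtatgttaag
Tnnc1: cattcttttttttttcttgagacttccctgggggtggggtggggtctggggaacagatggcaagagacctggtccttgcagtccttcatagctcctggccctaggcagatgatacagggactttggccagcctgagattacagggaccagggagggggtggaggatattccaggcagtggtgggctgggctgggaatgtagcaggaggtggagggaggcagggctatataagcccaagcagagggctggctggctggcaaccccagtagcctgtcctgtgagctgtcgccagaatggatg
Tnnc2: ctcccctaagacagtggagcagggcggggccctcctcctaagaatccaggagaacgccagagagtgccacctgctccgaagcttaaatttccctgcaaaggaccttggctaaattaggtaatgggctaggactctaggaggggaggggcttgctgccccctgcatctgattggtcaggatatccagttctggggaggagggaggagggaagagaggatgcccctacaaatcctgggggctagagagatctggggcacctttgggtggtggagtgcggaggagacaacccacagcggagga
Myh4: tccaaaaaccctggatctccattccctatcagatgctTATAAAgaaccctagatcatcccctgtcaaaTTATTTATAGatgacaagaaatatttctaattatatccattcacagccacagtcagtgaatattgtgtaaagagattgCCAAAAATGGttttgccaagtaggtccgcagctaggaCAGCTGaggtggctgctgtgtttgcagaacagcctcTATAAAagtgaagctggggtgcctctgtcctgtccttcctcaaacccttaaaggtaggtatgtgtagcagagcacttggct
Acta1: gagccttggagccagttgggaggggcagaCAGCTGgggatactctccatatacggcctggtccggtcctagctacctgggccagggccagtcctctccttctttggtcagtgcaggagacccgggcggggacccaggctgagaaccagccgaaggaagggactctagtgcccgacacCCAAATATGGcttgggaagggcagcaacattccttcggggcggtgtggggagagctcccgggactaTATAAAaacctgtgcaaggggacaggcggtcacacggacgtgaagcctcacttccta
The E-box stood in the windows of Myl2, Mylpf, Myh4 and Acta1, and the windows of Tnnc1 and Tnnc2 held no match to any of the 4 motifs. The Myh4 window also held a CArG box, a MEF2 match and 3 TATAAA matches, one of which lies inside the MEF2 match on the other strand. The Acta1 window held a CArG box and 1 TATAAA match besides its E-box. Windows were found for 29 of the 38 members, 36 windows in all. The E-box was present in 17 of these 36 windows, compared with 16.3% of all 32851 mouse windows of the same length. The CArG box was present in 6 of the 36, in Acta1, Ldb3, Myh4, Myl3 and Myom1, compared with 1.63% of all windows. The MEF2 consensus was present in 5 (3.19% of all windows) and TATAAA in 7 (13.6% of all windows). A match is a string of letters in the window, with no binding measured here.

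The values were deposited intensities that had been background-subtracted and brought to 1 common distribution across the tissues. They are given here as log2 of the intensity plus 16, with values below 0 set to 0, so an intensity at or below 0 reads 4.00 and the highest value on any array was 15.29. A probe counted as above background at an intensity over 8.80 (4.63 on this scale), and 50.8 to 51.1% of probes passed on each array. Each gene is read by its brightest probe over all arrays. The tissue labels fit their markers: the thermogenic uncoupling protein gene Ucp1 ranged from 14.13 to 14.80 on the brown fat arrays, the adipokine gene Adipoq from 14.19 to 14.86 in inguinal fat, and albumin (Alb) from 10.11 to 11.49 in liver while at or near the floor in both fats. Both ends of the scale touch the members. Differences near the floor are understated by the added 16, and fast genes near 15 in brown fat lie close to the top of the scale, where differences may be compressed.

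Brown fat held the muscle transcripts on every array. On the 12 brown fat arrays 35 members were above background throughout. The exceptions were Neb, the gene of the thin-filament ruler nebulin, whose probe passed on 1 array, and Trdn, the gene of the calcium-release scaffold triadin, whose probe passed on none. Both probes also read near the floor in the other tissues, and these genes entered no test. Acta1, the skeletal actin of the thin filament, ranged from 14.22 to 15.04 with a median of 14.86 in old brown fat, and from 14.62 to 15.08 with a median of 14.89 in young brown fat. Myl2, the slow regulatory light chain, ranged from 12.52 to 13.27 (median 12.77) in old and from 12.62 to 13.54 (median 13.20) in young brown fat. The 2 ages overlapped for both genes and no brown fat array lacked them. The distance between a member's lowest and highest brown fat array had a median of 1.33 over the 35 members, beside 0.87 over all 11911 named genes passing in that tissue. It was widest for Sln, the small inhibitor of the calcium pump, at 3.40, for Myh7, the slow myosin heavy chain, at 3.09 and for the calcium-storage gene Casq1 at 3.06. The low end was often the 20 h harvest: relative to each gene's brown fat mean, the slow genes averaged -0.71 and the fast genes -0.67 on the old 20 h array, the lowest brown fat array for both.

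In inguinal fat the same genes were uneven from array to array. The median distance between lowest and highest array was 7.49 over the 32 members that passed there, beside 0.85 over all 11978 named genes, so the members spread far more than the array as a whole. Mylpf, the fast regulatory light chain, had 14.26, 15.17, 8.78, 8.53, 9.52 and 9.77 in old inguinal fat at 0, 4, 8, 12, 16 and 20 h, and 10.02, 7.39, 10.28, 13.01, 7.97 and 13.68 in young inguinal fat at the same times. Myl2, its slow counterpart, had 7.42, 13.79, 5.91, 4.84, 4.43 and 4.43 in old inguinal fat, and 4.30, 4.64, 4.69, 7.96, 4.00 and 7.05 in young inguinal fat. Mylpf was thus high on 4 arrays, the old 0 h, old 4 h, young 12 h and young 20 h ones, whereas Myl2 reached brown fat values only on the old 4 h array. The ages overlapped for both genes.

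**Figure D1:**
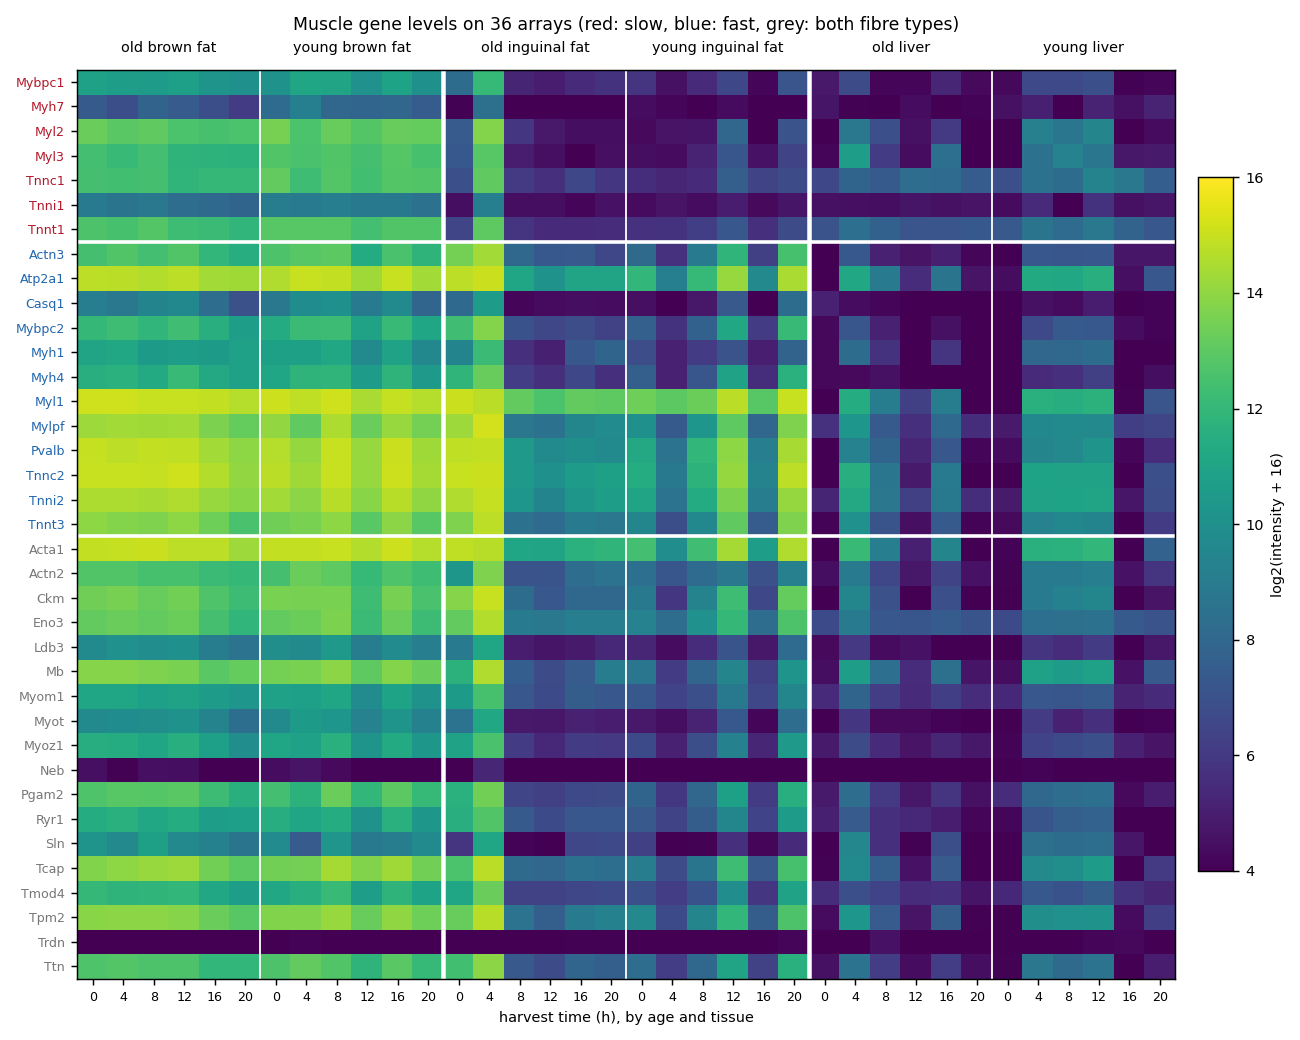
Log2 intensity of the members (rows, by fibre class) on each of the 36 arrays (columns: brown fat, inguinal fat and liver, old before young and harvest times 0 to 20 h within each). Brown fat is bright throughout, and the old 4 h inguinal array is bright in every class. The old 0 h, young 12 h and young 20 h inguinal arrays are bright mainly in the fast genes and in part of the shared genes.

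Myh4, the heavy chain of the fastest fibres, followed Mylpf, with 11.83 and 13.23 in old inguinal fat at 0 and 4 h and 5.60 to 6.62 at the other old harvests, and with 10.93 and 11.68 in young inguinal fat at 12 and 20 h and 5.12 to 7.65 at the other young harvests. Tnnc1, the slow troponin C, had 13.08 on the old 4 h array and otherwise 5.69 to 6.92 in old and 5.29 to 7.63 in young inguinal fat. The 2 kinds of gene therefore parted on 3 of the 4 arrays. Scaled to each gene's mean in brown fat, the 12 fast genes averaged 0.15 on the old 0 h, 1.11 on the old 4 h, -0.87 on the young 12 h and -0.26 on the young 20 h array. The 7 slow genes averaged -4.60, 0.77, -4.45 and -4.88 on the same arrays. On average the fast genes thus stood near their brown fat level on these arrays, and the slow genes did so only on the old 4 h array. The fast gene Myh1 lay lower, at -1.23, -3.57 and -2.84 on the old 0 h, young 12 h and young 20 h arrays, and Casq1 had -1.61 on the young 12 h array. On that array Myh1 lay among the slow genes, such as Tnni1 at -3.75 and Mybpc1 at -3.93. The 16 shared genes averaged -0.69, -1.98 and -1.30 on the old 0 h, young 12 h and young 20 h arrays, and some lay far lower. Sln had -3.60, -3.81 and -3.97 there, Actn2 -2.17, -3.73 and -3.30, and Mb -1.80, -4.04 and -3.28. On the other 8 inguinal arrays the slow genes averaged between -6.27 and -5.81 and the fast genes between -5.62 and -3.37. All fast genes but Casq1 stayed above background there, and Casq1 lay at 4.00 to 4.76. On each inguinal array 11 or 12 of the 12 fast genes were above background, as were 2 to 7 of the 7 slow genes.

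**Figure D2:**
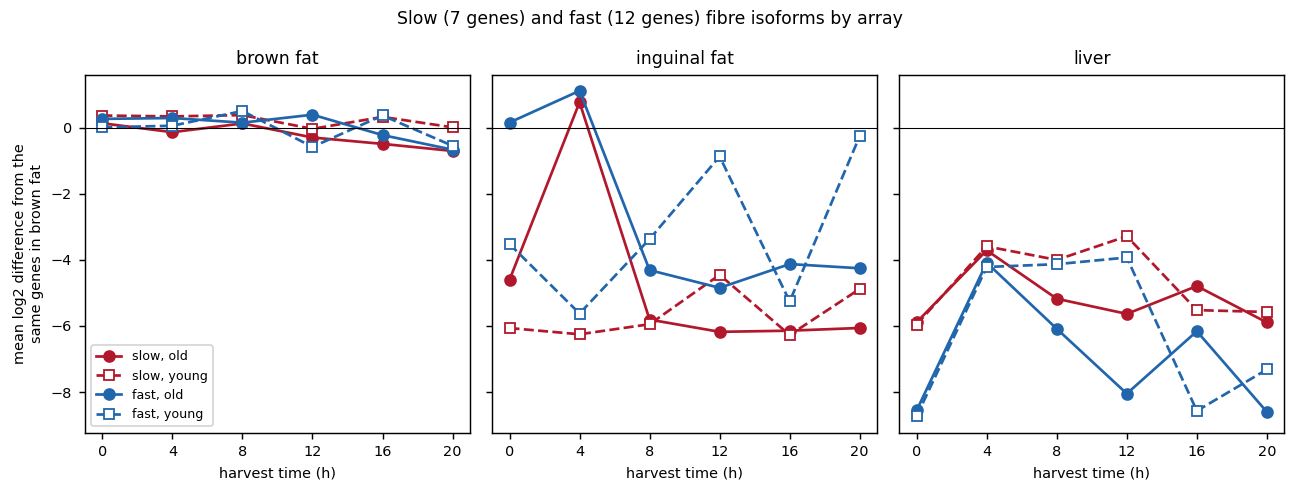
Mean log2 level of the 7 slow (red) and 12 fast (blue) members on each array, relative to each gene's own mean in brown fat (0 on the vertical axis), against harvest time in brown fat, inguinal fat and liver, with old arrays as filled points on solid lines and young arrays as open points on dashed lines. On the old 0 h, young 12 h and young 20 h inguinal arrays the fast genes lie between -0.87 and 0.15 and the slow genes between -4.88 and -4.45, whereas both lie above 0 on the old 4 h array.

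Markers of other cell types were read on the same arrays. Stratified epithelium genes averaged 6.50, 8.68, 6.02 and 4.64 on the old 0 h, old 4 h, young 12 h and young 20 h arrays, within the 4.64 to 9.51 seen over all inguinal arrays. The white adipocyte genes averaged 10.51 to 11.62 over all inguinal arrays and 10.80 on the old 4 h one. Ucp1 read 4.16 and 4.50 on the old 0 and 4 h arrays but 7.84 and 7.93 on the young 12 and 20 h arrays, the highest of the 12, where it otherwise lay at 4.00 to 6.18. The whole brown adipocyte list went another way on the old 4 h array, where it had its highest inguinal mean, 7.74. It had its next highest means, 7.44 and 7.43, on the young 12 h and young 20 h arrays, and 6.96 on the old 0 h array. These means do not rest on all genes of the list alike. On the old 4 h array 6 of the 10 were above background, and Cox7a1 alone ranged from 7.71 to 13.14 over the inguinal arrays. The part of these cells in the muscle values was not tested.

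Set against inguinal fat at matched age and harvest time, brown fat was higher for all 32 members that passed the filter on low values in both fats (limma, adjusted p under 0.05). Another 3, Myh7, Tnni1 and Casq1, were also called higher, but passed the filter only in brown fat, where they are high, so they had to differ. Of all features tested 35.1% were higher in brown fat and 72.5% differed either way, so a call alone is common in this comparison. The median difference, brown minus inguinal fat, was 3.40 over the 32 members and 0.00 over all features. By class it was 5.97 for 5 slow, 3.10 for 11 fast and 3.48 for the 16 shared genes.

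Among the thick-filament genes, Myl2 ranged from 12.52 to 13.54 (median 13.00) on the brown fat arrays and from 4.00 to 13.79 (median 4.76) on the inguinal arrays, a difference of 6.84 ± 0.68 (SE, n = 12 matched pairs, adjusted p = 2.6e-07, limma). Only the old 4 h inguinal array reached the brown fat values, and brown fat was higher in 11 of 12 pairs. Myl3, the slow essential light chain, differed by 6.46 ± 0.62 and Myh7 by 3.15 ± 0.41, each in 11 of 12 pairs. Mylpf ranged from 13.05 to 14.53 (median 14.09) in brown fat and from 7.39 to 15.17 (median 9.89) in inguinal fat, a difference of 3.18 ± 0.65 (adjusted p = 0.00041, limma), with brown fat higher in 9 of 12 pairs. The fast heavy chains Myh4 and Myh1 differed by 3.27 ± 0.78 and 3.54 ± 0.52. For the myosin-binding protein C genes, which stabilise the thick filament, the differences were 4.23 ± 0.54 for the slow Mybpc1 and 3.10 ± 0.73 for the fast Mybpc2. Myl1, the fast essential light chain, differed least of all members by its brightest probe, 1.26 ± 0.25, and by up to 2.86 with another of its 3 probes.

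Among the thin-filament genes, Tnnc1 ranged from 11.85 to 13.13 (median 12.42) in brown fat and from 5.29 to 13.08 (median 6.25) in inguinal fat, a difference of 5.66 ± 0.53 (adjusted p = 1.32e-07, limma). The slow troponin T gene Tnnt1, which anchors troponin to tropomyosin, differed by 5.97 ± 0.53 and the slow inhibitory subunit Tnni1 by 3.78 ± 0.35. Their fast counterparts differed less: 2.84 ± 0.57 for Tnnc2, 3.23 ± 0.71 for Tnnt3 and 2.80 ± 0.56 for Tnni2. Tpm2, a tropomyosin, differed by 3.62 ± 0.64, and Acta1 by 2.36 ± 0.44 with brown fat higher in 12 of 12 pairs. Tmod4, which caps the thin filament, differed by 3.40 ± 0.63.

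In the Z-disc, which joins neighbouring sarcomeres, the actin crosslinker Actn2 differed by 3.88 ± 0.47 and its fast-fibre relative Actn3 by 3.13 ± 0.77. Other Z-disc genes were also higher in brown fat, Tcap by 4.02 ± 0.65, Myot by 3.59 ± 0.58, Myoz1 by 3.41 ± 0.64 and Ldb3 by 3.35 ± 0.54. The giant spring titin (Ttn) differed by 3.55 ± 0.67 and the M-band gene Myom1 by 2.58 ± 0.47. Filaments, Z-disc and M-band thus all differed in the same direction. Calcium handling followed, with the fast calcium pump Atp2a1 at 2.59 ± 0.54, the release channel Ryr1 at 2.72 ± 0.55, Casq1 at 3.21 ± 0.63, the calcium buffer Pvalb at 3.02 ± 0.58 and Sln at 3.79 ± 0.53. Among the energy genes, myoglobin (Mb), the oxygen store of muscle, differed by 4.69 ± 0.60 and muscle phosphoglycerate mutase (Pgam2) by 3.99 ± 0.66. Creatine kinase (Ckm), which buffers ATP, differed by 3.42 ± 0.78 and muscle enolase (Eno3) by 2.55 ± 0.56. Without the 4 h harvest all 35 calls were kept, 3 of them for members that passed the filter only in brown fat. The slow genes' differences were larger in that fit: 7.50 for Myl2, 6.16 for Tnnc1 and 6.51 for Tnnt1. For 16 members several probes passed, and brown fat was higher by each passing probe of all 16.

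The slow and fast partners of each role were compared by their own brown minus inguinal differences, so that no probe's level is set against another's. The slow minus fast contrast was 5.20 ± 2.07 (SD, n = 12 pairs) for the essential light chains Myl3 and Myl1, 3.66 ± 1.89 for the regulatory light chains Myl2 and Mylpf, 2.81 ± 2.16 for troponin C and 2.74 ± 2.17 for troponin T. It was positive in 11 of 12 pairs for the first 3 and in 12 of 12 for troponin T, and the large value for Myl3 against Myl1 also holds the small difference of the Myl1 probe. It was smaller for myosin-binding protein C (1.13 ± 1.49, positive in 11 of 12 pairs) and for troponin I (0.98 ± 2.05, 8 of 12). For the heavy chains Myh7 and Myh4 it was -0.12 ± 2.75 and positive in 4 of 12, with Myh7 above background on only 1 of 12 inguinal arrays, and Tnni1 on 3, so that their differences are cut off by the floor. These contrasts are descriptions with no test.

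**Figure D3:**
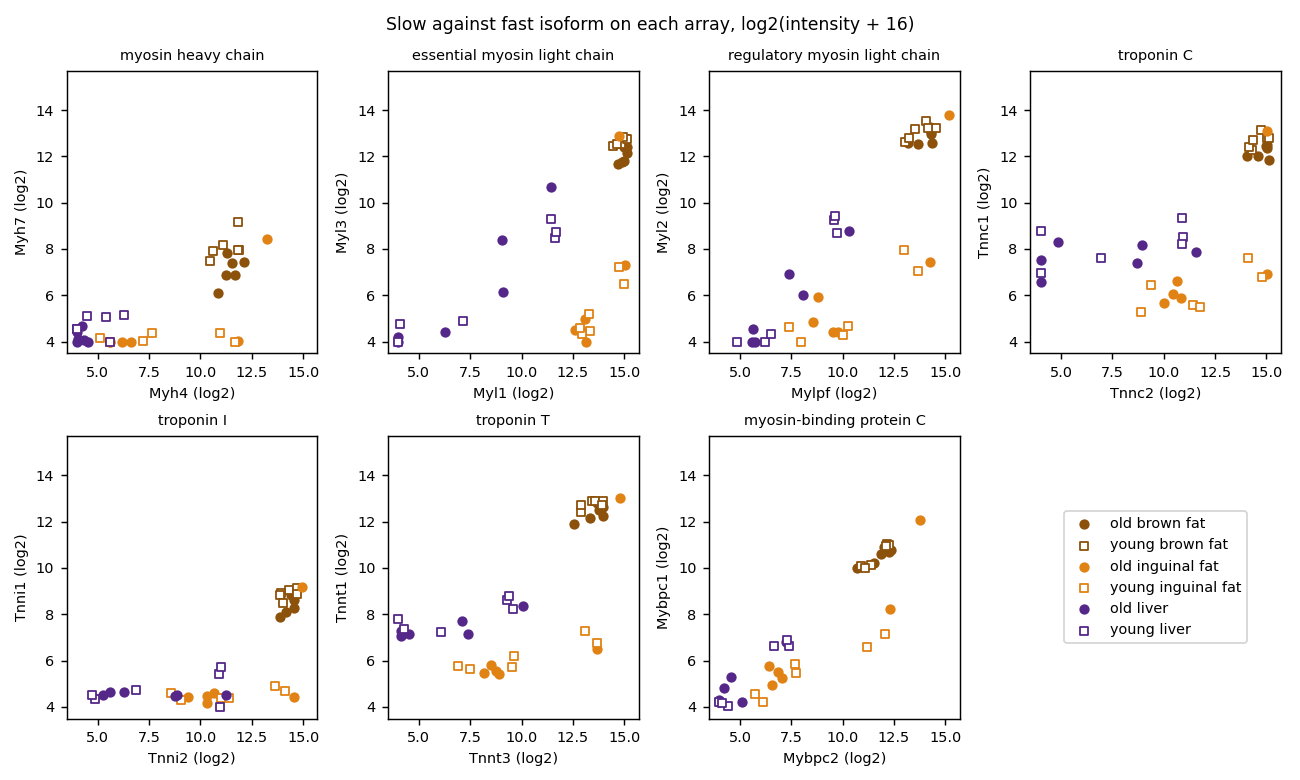
Log2 level of the slow isoform (vertical axis) and the fast isoform (horizontal axis) of 7 roles, with 1 point for each of the 36 arrays, coloured by tissue and filled for old, open for young arrays. For the light chains and troponins, 3 inguinal arrays lie at the right with the brown fat arrays in the fast gene but low in the slow gene, and 1, old 4 h, lies with the brown fat arrays in both.

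Liver carried the genes at lower levels, again unevenly. Members above background numbered 13, 31, 28, 20, 28 and 11 of 37 on the old liver arrays at 0, 4, 8, 12, 16 and 20 h, and 8, 34, 32, 35, 11 and 25 on the young ones. Acta1 had 4.00, 12.15, 9.13, 5.06, 9.48 and 4.00 in old liver at these times, and 4.12, 11.62, 11.66, 11.93, 4.00 and 7.78 in young liver. Acta1 was thus high on the old 4 h and the young 4, 8 and 12 h arrays, at the floor or within about 1 of it at old 0, 12 and 20 h and young 0 and 16 h, and in between at old 8 and 16 h and young 20 h, and the ages overlapped. Relative to brown fat the slow genes averaged -3.71 on the old 4 h array and -3.59, -4.00 and -3.29 on the young 4, 8 and 12 h arrays. The fast genes averaged -4.08 on the old 4 h array and -4.22, -4.13 and -3.93 on those young arrays. In liver the slow and fast averages thus stood within 0.64 of each other on these 4 arrays, but they include genes below background. On the old 4 h array 5 of 7 slow and 10 of 12 fast genes were above background, with Myh7, Tnni1, Myh4 and Casq1 below it. All 7 slow and all 12 fast genes were above background only on the young 12 h array. On the liver arrays where most members lay at the floor, the value relative to brown fat is set by the gene's brown fat level, so the classes are not compared there.

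A few members behaved otherwise in liver. Tnnc1 ranged from 6.60 to 8.31 (median 7.69) in old and from 6.95 to 9.35 (median 8.38) in young liver, and was above background on all 12 arrays, as were Tnnt1 (7.08 to 8.78), Eno3 (6.68 to 8.91), Mylpf, Tnni2, Myom1 and Tmod4. Tnnc1 and Tnnt1 thus did not reach the floor on the arrays where Acta1 did. The adipocyte gene Adipoq read 7.33 on the old 4 h array and 6.74, 5.98 and 7.47 on the young 4, 8 and 12 h arrays, and 4.00 to 5.91 on the other 8 liver arrays. Lymphocyte and stratified epithelium genes averaged 7.45 and 5.83 on the old 4 h liver array, above the highest other liver arrays at 6.56 and 4.84. On the young 4, 8 and 12 h liver arrays they averaged 5.65 to 6.19 and 4.24 to 4.84. Ucp1 was above background on 0 of 12 liver arrays, at 4.00 to 4.46. The part of these cells in the muscle values of liver was not tested.

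Brown fat was higher than liver for all 28 members that passed the filter in both tissues (limma, 38.9% of all features were higher and 71% differed either way), with a median difference, brown fat minus liver, of 6.34 beside 0.04 over all features. The difference was 7.81 ± 0.63 for Pvalb and 7.23 ± 0.80 for Tnnc2 (adjusted p = 8.69e-09 and 5.04e-07, limma), with brown fat higher in 12 of 12 pairs for both. A further 7, Casq1, Ldb3, Mybpc2, Myh4, Myh7, Myot and Tnni1, were called higher too but passed only in brown fat, where they are high. The size of a difference is limited by the floor in liver: a gene cannot differ by more than its brown fat level less 4.00, and Myh7 and Tnni1 averaged 7.60 and 8.66 in brown fat against 14.59 for Pvalb. The fibre classes are therefore not ranked in brown fat against liver. The smallest differences were 3.13 ± 0.17 for Myh7 and 3.47 ± 0.62 for Sln. Myh7 depends on its probe: the difference was 3.13 by the probe used here, 0.52 by another and -2.07 by the third, the only 1 of 51 passing member probes with a higher mean in liver than in brown fat.

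Between inguinal fat and liver the fibre classes split, within a limit set by the floor. Myl2, Myl3 and Mybpc1 had medians of 4.76, 4.79 and 5.63 in inguinal fat and 5.28, 5.51 and 4.56 in liver, which leaves little room to differ. The slow genes Tnnc1 and Tnnt1 were above background on all 12 arrays of both tissues, with medians of 6.25 and 5.80 in inguinal fat and 8.03 and 7.53 in liver. Of 32 members tested, 24 were higher in inguinal fat (42.2% of all features were) and 1, Tnnt1, was lower (37.6% of all features were), with 79.8% of all features called either way. Of the 24, Ldb3, Mybpc2, Myh4 and Myot passed the filter only in inguinal fat, where they are high, so they had to differ. Of the 28 members that passed in both tissues, 20 were higher and 1 was lower in inguinal fat. The median difference, inguinal fat minus liver, was 2.77 over the members and 0.03 over all features. Of the 9 fast genes that passed in both tissues 8 were higher in inguinal fat, with a median of 3.75 over the 9. Among them were Myl1 at 5.83 ± 0.83, Pvalb at 4.79 ± 0.79 and Tnnc2 at 4.38 ± 0.91. Of the 14 shared genes that passed in both tissues 12 were higher, with a median of 2.53 over the 14. Of 5 slow genes none passed as higher: Mybpc1 had 1.11 ± 0.51 (adjusted p = 0.0589, limma), positive in 9 of 12 pairs, Myl2 had -0.04 ± 0.71 (adjusted p = 0.957, limma), Myl3 -0.62 ± 0.63 and Tnnc1 -1.16 ± 0.56. Tnnt1 was lower in inguinal fat, with a difference of -1.14 ± 0.49 (adjusted p = 0.0427, limma), in 11 of 12 pairs, the odd pair being that of the old 4 h inguinal array, and this call was lost under several alternatives (adjusted p from 0.0826 to 0.159).

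**Figure D4:**
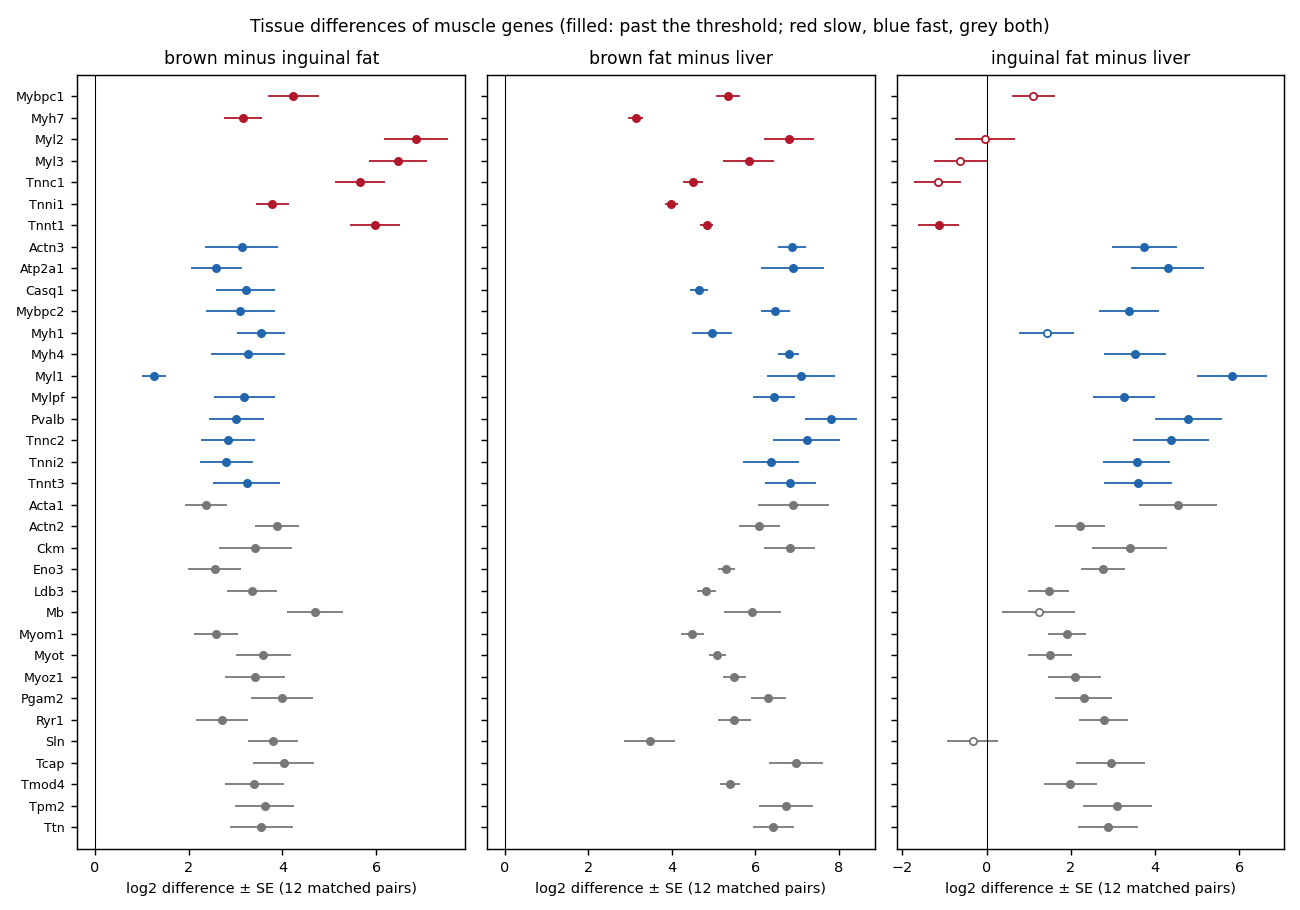
Difference in log2 level of each tested member for brown minus inguinal fat, brown fat minus liver and inguinal fat minus liver (horizontal axis, mean with SE over 12 matched pairs, slow genes red, fast genes blue, shared genes grey, filled where past the threshold). All tested members, also those that passed the filter only in brown fat, lie right of 0 in both brown fat comparisons. Between inguinal fat and liver the slow genes lie at or left of 0 except Mybpc1, at 1.11.

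No member passed the threshold for age in either fat. In brown fat none of 35 passed, whereas 0.241% of all features did, and the median difference, old minus young, was -0.05. The 7 slow genes were all lower in old brown fat, with a median of -0.44, whereas 9 of 12 fast genes were higher, with a median of 0.11. Myh7 ranged from 6.09 to 7.84 (median 7.14) in old brown fat and from 7.50 to 9.18 (median 7.96) in young brown fat, a difference of -1.03 ± 0.24 that was negative at 6 of 6 harvest times (adjusted p = 0.265, limma). Myl3 differed by -0.60 ± 0.13 (6 of 6 times, adjusted p = 0.196), Tnnc1 by -0.49 ± 0.14 (5 of 6, adjusted p = 0.394), Tnni1 by -0.44 ± 0.12 (6 of 6, adjusted p = 0.383) and Tnnt1 by -0.38 ± 0.13 (6 of 6, adjusted p = 0.589), all by limma. These 5 slow genes were the members with an unadjusted p under 0.05, 5 of 35 beside 6.96% of all features. Myl2 and Mybpc1 had -0.27 ± 0.14 and -0.01 ± 0.21. The old and young arrays overlapped for Myh7, Tnnc1, Tnni1 and Tnnt1, but not for Myl3, with 11.69 to 12.41 in old and 12.44 to 12.82 in young brown fat.

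In inguinal fat none of 32 members passed (4.1% of all features did), and none had an unadjusted p under 0.05, whereas 23.9% of all features did. Of the 32, 31 had a higher mean in old inguinal fat, with a median of 0.66 beside -0.01 over all features. That direction depended on single harvests: the median was -0.04 without 0 h and -0.68 without 4 h, but 1.54 without 12 h and 1.55 without 20 h, and no member passed in any of these fits. The SE shows the same unevenness. Myh4 ranged from 5.60 to 13.23 (median 6.39) in old and from 5.12 to 11.68 (median 7.43) in young inguinal fat, a difference of 0.15 ± 1.76 (adjusted p = 0.973, limma). Myl2 ranged from 4.43 to 13.79 (median 5.37) in old and from 4.00 to 7.96 (median 4.67) in young inguinal fat, a difference of 1.37 ± 1.43 (adjusted p = 0.610, limma).

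In liver 1 of 28 members passed: Tnnc1 was lower in old liver, with a difference of -0.59 ± 0.13, negative at 6 of 6 harvest times (adjusted p = 0.0423, limma), among 0.629% of all features that were lower and 4.17% that differed either way. Its old and young liver arrays overlapped in range, since Tnnc1 also differed between harvest times. The call was lost in 5 of the 6 fits that left out a harvest time (adjusted p from 0.0684 to 0.120). All 28 members had a lower mean in old liver, with a median of -0.76, and it was -0.10 without the 12 h and -1.29 without the 16 h harvest. Tnnt1 had -0.54 ± 0.20 (adjusted p = 0.194) and Tmod4 -0.59 ± 0.25 (adjusted p = 0.257), both by limma.

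**Figure D5:**
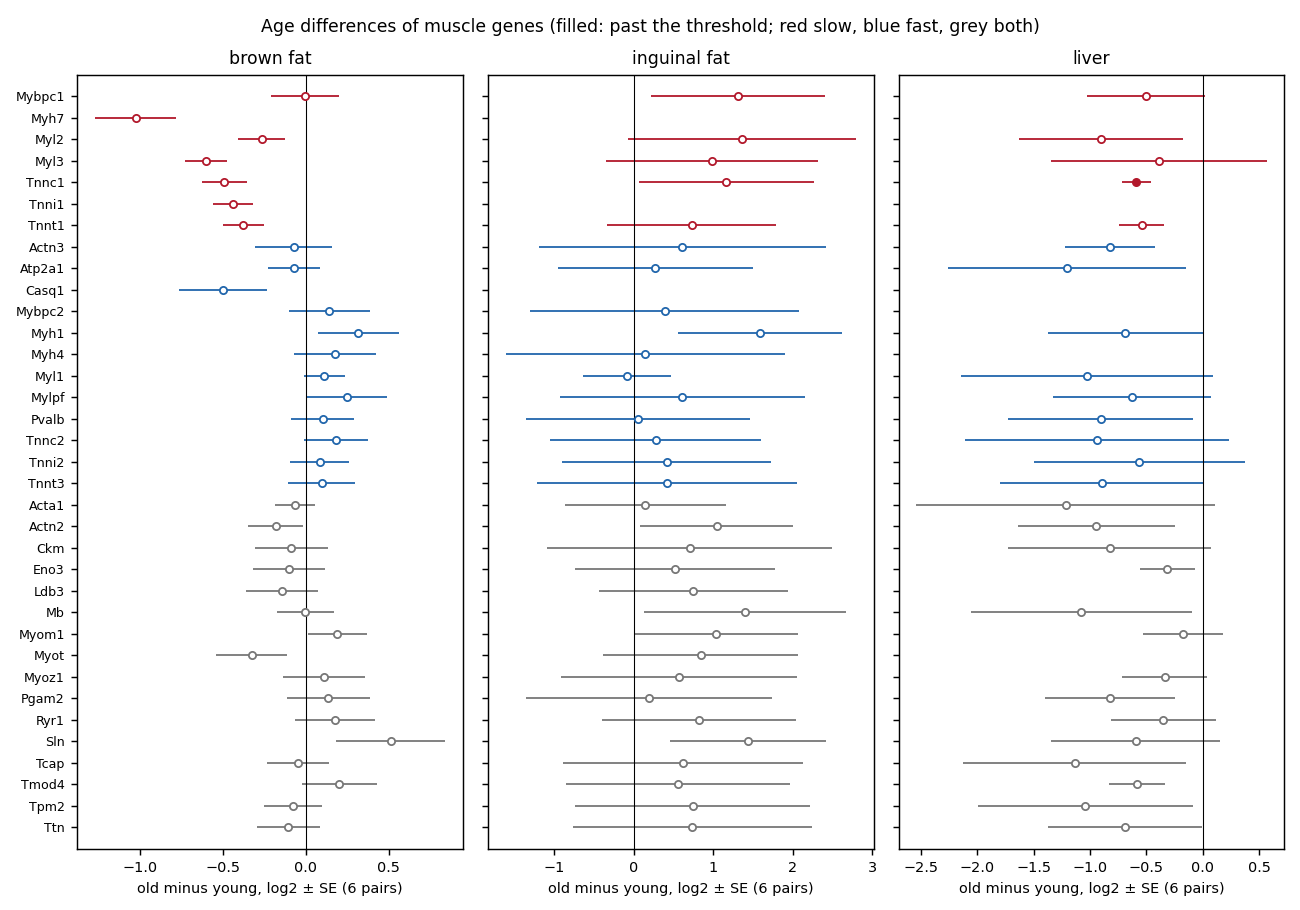
Old minus young difference in log2 level of each tested member in brown fat, inguinal fat and liver (horizontal axis, with a scale of its own in each panel, mean with SE over 6 harvest times, filled where past the threshold). Tnnc1 in liver is the filled point, the slow genes lie left of 0 in brown fat, and the error bars in inguinal fat are over 1 for most members.

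The age differences were also compared between tissues. No member passed in inguinal against brown fat (0.0208% of all features did), in inguinal fat against liver (6.82%) or in brown fat against liver (0.225%). The members with an unadjusted p under 0.05 were Myh1, Sln and Actn2, with an age difference higher in inguinal fat than in liver by 2.27 ± 0.75, 2.03 ± 0.70 and 1.99 ± 0.75 (adjusted p = 0.109, 0.118 and 0.150, limma). They are 3 of 28 members, beside 23.9% of all features with an unadjusted p under 0.05 there, a smaller share. In the other 2 comparisons no member had an unadjusted p under 0.05.

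Change over the day was tested as a 24 h wave in each tissue. In inguinal fat no member passed (0.0571% of all features did) and none had an unadjusted p under 0.05. In brown fat no member passed (0.222%), and 9 of 35 had an unadjusted p under 0.05 (10.8% of all features did), with amplitudes from 0.32 for Tnni1 to 0.86 for Casq1. In liver 1 of 28 passed (2.07% of all features did): Tmod4, with 4.70 to 6.94 (median 5.59) in old and 5.28 to 7.55 (median 6.39) in young liver, had an amplitude of 0.999 (log2) and a peak at 7.59 h (adjusted p = 0.0431, limma). Its high arrays were those where Acta1 was high. In all, 25 of the 28 had an unadjusted p under 0.05 (16.9% of all features did), with a median amplitude of 1.89 over the 28 beside 0.14 over all features, and the peaks lay between 6.80 and 8.01 h apart from Tnnc1 at 12.0 h. With 1 array for each age and time, a time of day and the dissection of that hour's pieces cannot be told apart.

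Most striated muscle genes outside the members were, like them, higher in brown than in inguinal fat. Of 48 such genes listed, 41 had a probe and 40 were tested in brown against inguinal fat. Of the 40, 38 were higher and 1 was lower, beside 35.1% and 37.4% of all features, with a median of 2.48. The 5 with the largest differences were the Z-disc genes Myoz2 and Csrp3 at 4.91 ± 0.47 and 4.16 ± 0.53, the calcium-binding gene Hrc at 4.17 ± 0.62, Klhl41 at 4.01 ± 0.59 and the muscle cytochrome oxidase subunit Cox6a2 at 3.63 ± 0.60. Csrp3 did not follow the members in liver, where it ranged from 9.85 to 10.96. Tpm1 and Tpm3 had higher means in inguinal fat (10.75 and 10.76) than in brown fat (10.52 and 9.13). Myoz2, a slow-fibre gene, had 10.94 on the old 4 h inguinal array and 4.00 to 6.20 on the other 11. Myl2 and Tnnc1 were also highest on that array, with 4.00 to 7.96 and 5.29 to 7.63 on the other 11. Against liver 38 of the 40 were higher in brown fat and 1 was lower, beside 38.9% and 32.1% of all features. Between inguinal fat and liver 27 of 36 were higher in inguinal fat and 2 lower, beside 42.2% and 37.6% of all features. None of the list passed for age in any tissue, where 0.241% of all features did in brown fat, 4.1% in inguinal fat and 4.17% in liver. A gene of these lists, too, could enter a tissue comparison through 1 of its tissues alone. In brown against inguinal fat this held for Art1, Cav3, Chrna1, Clcn1 and Trim63, which passed the filter only in brown fat. In liver only 22 genes of the striated muscle list passed the filter. The rest of the 40 and of the 36 entered the comparisons with liver through the fat alone, where they are high, so they had to differ.

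Heart markers were mixed: of the 10 measured, 5 lay at or near the floor in both fats and 5 were above background on every brown fat array. The atrial and ventricular genes Nppa, Nppb, Myl7 and Mybpc3 were above background on 0 of 12 brown fat and 0 of 12 inguinal arrays, and cardiac troponin I (Tnni3) on 1 and 5. The atrial light chain gene Myl4 ranged from 8.52 to 10.93 in brown and from 8.64 to 10.85 in inguinal fat, and the connexin gene Gja5 from 6.68 to 7.12 and from 6.31 to 7.50, both above background on all arrays of both fats. The calcium-release channel gene Ryr2 was lower, at 4.66 to 6.72 in brown and 4.00 to 5.09 in inguinal fat. Genes of the list that skeletal muscle can also transcribe were higher in brown than in inguinal fat, Myh6 by 3.09 ± 0.34 and cardiac actin Actc1 by 2.45 ± 0.31. Myh6, Actc1 and Ryr2 passed the filter only in brown fat, where they are high. Over the whole list of 11, 10 had a probe and 5 were tested in brown against inguinal fat. Of the 5, 3 were higher and 1 was lower, beside 35.1% and 37.4% of all features. Of 10 developmental and myogenic genes, 9 had a probe and all 7 tested were higher in brown than in inguinal fat. Of the 7, Myh8, Myod1, Chrng and Cdh15 passed the filter only in brown fat, where they are high, so they had to differ. The largest differences of the list were those of the muscle regulator Myf6 at 2.83 ± 0.49 and perinatal myosin Myh8 at 2.18 ± 0.46. The satellite-cell gene Pax7 was above background on 0 of 12 arrays of each tissue. Smooth muscle genes went the other way, with 6 of 8 lower and 1 higher in brown than in inguinal fat, such as Acta2 at -1.06 ± 0.13 and Mylk at -0.80 ± 0.12.

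Outside the members, the genes whose levels over the 12 inguinal arrays were most like the members' mean were Xirp2, Myom2, Myoz3, Rpl3l, Trim72, Myo18b, Hrc, Mlf1, Ckmt2 and Rbfox1. Their Pearson correlations ran from 0.993 to 0.997 among 11946 genes compared, and from 0.982 to 0.997 without the old 0 h and 4 h arrays. Over the 12 liver arrays the closest was Cox6a2, at 0.991. These are descriptions over arrays that share tissue and platform, with no test, and Xirp2, Myom2, Myoz3 and Hrc were also in the striated muscle list. Rpl3l, a muscle form of a ribosomal protein, ranged from 5.72 to 13.50 (median 7.33) over the inguinal arrays.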

How the data were processed

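Transcripts were measured on 36 bead arrays. The deposited table holds 1 intensity for each probe and array, made with BeadStudio (its version is not stated), per the submitters' processing notes. Deposited intensity values below 0 (28.7 to 29.1% of each array) show that a background had been subtracted, and sorted columns were nearly identical, so the arrays had been quantile-normalized together. How this was done is not given in the sources used here. A scanner table with 144 columns was not used, because its column names give tissue and a running number but no age or harvest time. Chip batches were therefore not tested. The planned detection filter was replaced by a noise estimate from values below 0 (SD 5.35).

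Computed here: log2(intensity + 16), the brightest of 34885 probes with 1 symbol for each gene, and a filter of at least 6 of 12 arrays above background in a tissue (either tissue where 2 are compared, both for age differences between tissues). Tests were 2-sided and used lmFit and eBayes of limma 3.58.1 (R 4.3.3), over all features including probes without a symbol, with Benjamini-Hochberg adjustment and a threshold of 0.05. Age had harvest time as a factor, tissues were compared by matched differences, and 24 h waves by an F test of cosine and sine terms beside age. The labels pair arrays by harvest time and, per the design text, tissues come from the same animals. The number of arrays limits the precision. The tests were tried on simulated data. Sample labels and design text give harvests 4 h apart and the treatment protocol 3 h. The design text also names another fat depot at the RNA step, and the sample labels' inguinal fat is used. All members are accounted for. Other genes named are the 5 largest passing of a list, defining markers, and the 10 most like the members. The members and all lists were chosen with earlier results of these data known. Alternatives were offsets of 4 and 64, no filter, another choice of probe, no block and leaving out each harvest time.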

Additional observations from a re-analysis of the deposited data

Results flagged for a closer look

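Of 210 groups of 6 arrays (member, tissue and age), 16 held a highest or lowest array whose gap to the next, over the whole range, exceeded Dixon's 95% value, which chance gives in about 1 in 20 groups. Of these, 7 were high values on the old inguinal fat 4 h array: Myh7 at 8.45, Myl2 at 13.79, Myl3 at 12.89, Tnnc1 at 13.08, Tnni1 at 9.17, Tnnt1 at 13.03 and Neb at 5.31. Of these 7 genes, 6 are slow isoforms, and the nearest other old inguinal value was 7.42 for Myl2 and 6.92 for Tnnc1. On the old liver 4 h array 6 members stood high: Mybpc2 at 7.23, Actn3 at 7.28, Eno3 at 8.91, Ldb3 at 5.99, Myom1 at 7.85 and Myot at 5.88. Lymphocyte genes (mean 7.45) and stratified epithelium genes (mean 5.83) were also highest there among the liver arrays, and their part in these values was not tested. Casq1 stood high on the old liver 0 h array, at 5.12. In brown fat Acta1 was low on the old 20 h array, at 14.22, and Tnnt1 was low on the young 12 h array, at 12.41. Genes on 1 array share its RNA, so these values are not independent of each other.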

How the results depend on the processing

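The 35 members higher in brown fat than in inguinal fat, and the 35 higher than in liver, stayed 35 under every alternative run, apart from 36 against liver with no filter, and apart from the direction of Myh7 against liver. Of these, 32 and 28 passed the filter in both tissues compared. The other 3 and 7 passed only in brown fat, where they are high, so they had to differ. Myh7 turned to -2.68 with an offset of 4 (adjusted p = 2.36e-08) and to -2.07 with the brightest probe in the tissues compared (adjusted p = 3.27e-10), since another probe was used. The inguinal fat against liver count was 23 to 28 when a harvest time was left out.

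For age in liver, 1 member passed, and 0 did with an offset of 4, with no filter and with no replicate block, and 0 to 1 when a harvest time was left out. For the 24 h wave in liver, 1 passed, and 0 with an offset of 4, 5 with an offset of 64, 0 with no filter and 0 to 1 with a harvest time left out. For the age difference in inguinal fat against liver, 0 to 2 passed with a harvest time left out. Without the block of harvest time, which pairs the arrays, no other call on the members was lost except Tnnt1 in inguinal fat against liver (adjusted p = 0.0826). Over the member differences with a call, 1034 values kept direction and side of the threshold, 20 lost the threshold and 2 turned direction.

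Counts over all features moved more. For age in inguinal fat 646 passed, 79 with no filter, and 0 to 393 with a harvest time left out. For age in brown fat 38 passed, 6 with an offset of 4, 1 with no filter and 3 to 58 with a harvest time left out. For age in liver 657 passed, 174 with no filter, 438 with an offset of 4 and 290 to 428 with a harvest time left out. For the 24 h wave in liver 326 passed, 145 with no filter, 216 with an offset of 4, 659 with an offset of 64 and 57 to 218 with a harvest time left out. The cause was not tested. Members near the floor, as in liver, have values set largely by the offset.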
